A study of Homo sapiens with 6 samples.

Results

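The receptor tyrosine kinase AXL and its ligand GAS6, the related receptors MERTK and TYRO3, and the receptors MET, MST1R, EPHA2, FGFR1, FGFR2 and FGFR3 were examined in RNA-seq of PC9 cells with and without knockdown of RBM10. These 10 genes were selected on values of the same shRBM10 against sh-NC comparison as well as on their function, so their levels and differences are given as a description and no p-value is given for them. The deposited gene table held 16306 genes, among them 9 of the 10, and all 9 passed the filter on low counts that left 12620 genes for testing. FGFR2 was not listed in the gene table or in the transcript table, so its expression was not analysed here. It is counted among the members only for promoter windows.

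PC9 cells come from a human lung adenocarcinoma and grow on an activating deletion in EGFR, and RBM10 is an RNA-binding protein that regulates alternative splicing. Both groups were PC9 cells of the same line. The sh-NC group, or control, received a negative control hairpin and the shRBM10 group, or knockdown, a hairpin against RBM10, with 3 libraries in each group. The columns of the count table named 3 shRBM10 libraries A, B and C of hairpin SH1, whereas the sample titles read SH1A, SH2A and SH3A, so libraries B and C are known by their group alone and whether the group carried 1 hairpin or several cannot be told apart. Time after transduction was not given. The labels call the samples replicate biosamples without naming separate cultures, so the errors given here cover the spread between these libraries, which may be technical.

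Receptor tyrosine kinases are single-pass membrane proteins that a bound ligand brings together, after which they phosphorylate each other and recruit adaptors that feed the RAS-MAPK, PI3K-AKT, STAT3 and SRC pathways. In EGFR-mutant lung cancer, signal from another receptor of this class can replace the signal that an EGFR inhibitor blocks, which is known as bypass resistance. MET amplification is the best known form, and AXL, FGFR1, EPHA2 and others have been described in the same role. AXL is also a marker of cells with mesenchymal traits.

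Library totals were 16606401 to 18864241 estimated read counts. RBM10 had 1578.39, 863.54 and 1627.79 counts in sh-NC libraries 1 to 3, against 523.2, 536.6 and 700.42 in A to C of shRBM10. Its normalised count was 1361 ± 155 in control and 575 ± 85.4 in knockdown libraries (SD, n = 3 each), without overlap, and the log2 fold change was -1.24 (SE 0.23; edgeR quasi-likelihood test, adjusted p = 0.100). The adjusted p was 0.0487 without sh-NC library 2 in the same edgeR test, and the log2 fold change was -0.96 (SE 0.17) with the GC trend removed. sh-NC library 2 stood apart from the others: its scaling factor was 0.738 against 1.03 to 1.08, and KRT8 alone had a normalised count of 475400 there against 167300 to 254500 elsewhere. Libraries also differed by GC content. In the lowest 20% of genes by GC content the median log2 deviation was 0.81 in shRBM10 A, 0.50 in B and -0.22 in C, against -0.18, -0.65 and -0.21 in sh-NC 1, 2 and 3. Fold changes of the members are therefore given without sh-NC library 2 and with the GC trend removed as well. shRBM10 library C stood apart from its own group, since its chi-square per degree of freedom over genes was 29.8 and 30.2 against sh-NC 1 and 3, but 97.9 and 53.9 against shRBM10 A and B. The closest pair by far was sh-NC 1 and 3, at 2.93, with the next pair, shRBM10 A and B, at 29.7. Fits without sh-NC library 2 keep only sh-NC 1 and 3 as controls. Their SE and adjusted p thus rest on a control spread that may be technical. The epithelial markers EPCAM, KRT8, KRT18, KRT19 and CDH1 were abundant in every library, whereas the lung lineage markers NKX2-1 and NAPSA had 0 to 2 and 9 to 17 counts.

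AXL had the lowest mean of shRBM10 relative to sh-NC among the 9 genes, EPHA2, TYRO3 and GAS6 were also lower in every shRBM10 library than in any sh-NC library, and MET was the only member with a higher mean in shRBM10 in the main comparison, joined by FGFR3 and MST1R once the GC trend was removed. MET did not separate the groups, because shRBM10 library C lay below sh-NC libraries 1 and 3. The other 4 genes, MERTK, MST1R, FGFR1 and FGFR3, overlapped between the groups.

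**Figure D1:**
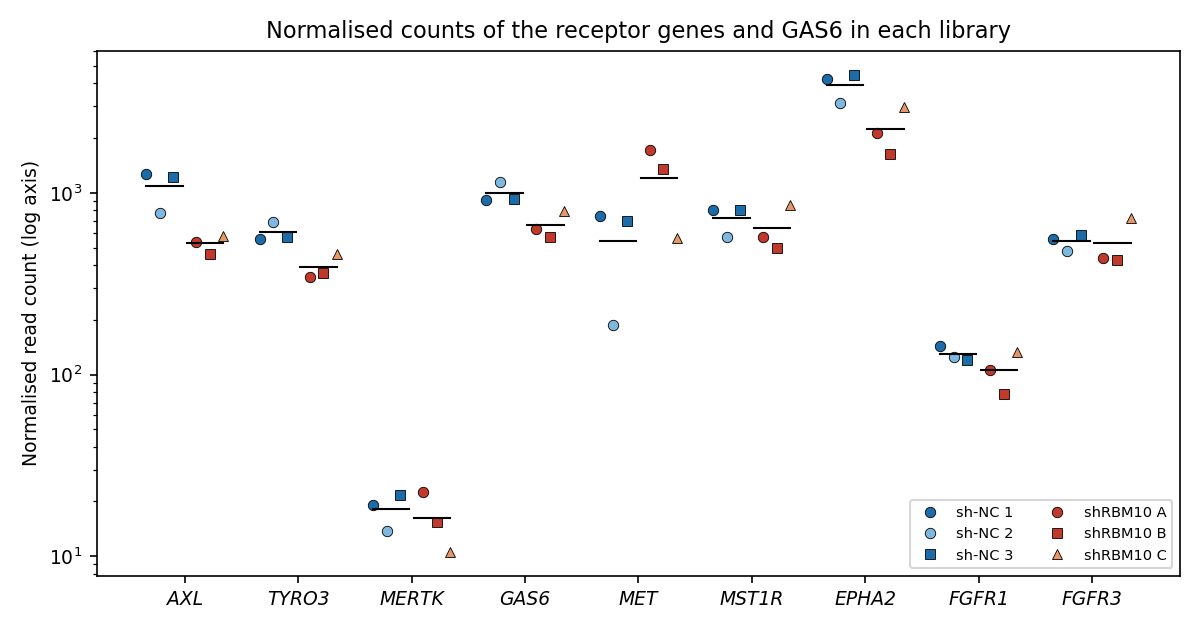
Normalised read counts (estimated counts scaled by edgeR, log axis) of the 8 receptor genes in the table and GAS6 in each of the 6 libraries. Points are libraries and black bars are group means. AXL, TYRO3, GAS6 and EPHA2 lay lower in all 3 shRBM10 libraries, and MET ranged from 186 in sh-NC library 2 to 1712 in shRBM10 library A.

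Levels of different genes were compared per length, as TPM (the transcripts of a gene relative to all transcripts, corrected for length), in the 3 sh-NC libraries. EPHA2, a receptor for ephrin-A ligands on neighbouring cells, was the highest at 68.3 ± 32.3 TPM (SD, n = 3). It was followed by the secreted ligand GAS6 at 26.3 ± 6.51 TPM and AXL at 16.1 ± 8.27 TPM. MST1R, the receptor RON for macrophage stimulating protein, had 10.6 ± 4.98 TPM. FGFR3, MET and TYRO3 formed the middle of the order with 8.56 ± 3.61, 6.11 ± 4.30 and 5.46 ± 1.45 TPM. FGFR1 had 1.82 ± 0.72 TPM and MERTK, the lowest, 0.33 ± 0.16 TPM. Neighbours in this order overlapped over the 3 libraries except EPHA2 against GAS6, TYRO3 against FGFR1, and FGFR1 against MERTK. Much of the spread was shared by the genes, since sh-NC library 2 was the lowest for all 9. Within each of the 3 libraries every gene exceeded the next in the order, apart from MET against TYRO3, where this held in 2 of 3. Among the 48 receptor tyrosine kinases of the table by mean TPM, EPHA2 ranked 3, behind DDR1 at 89.98 TPM and EGFR at 69.73 TPM, AXL ranked 12 and MET 16.

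**Figure D2:**
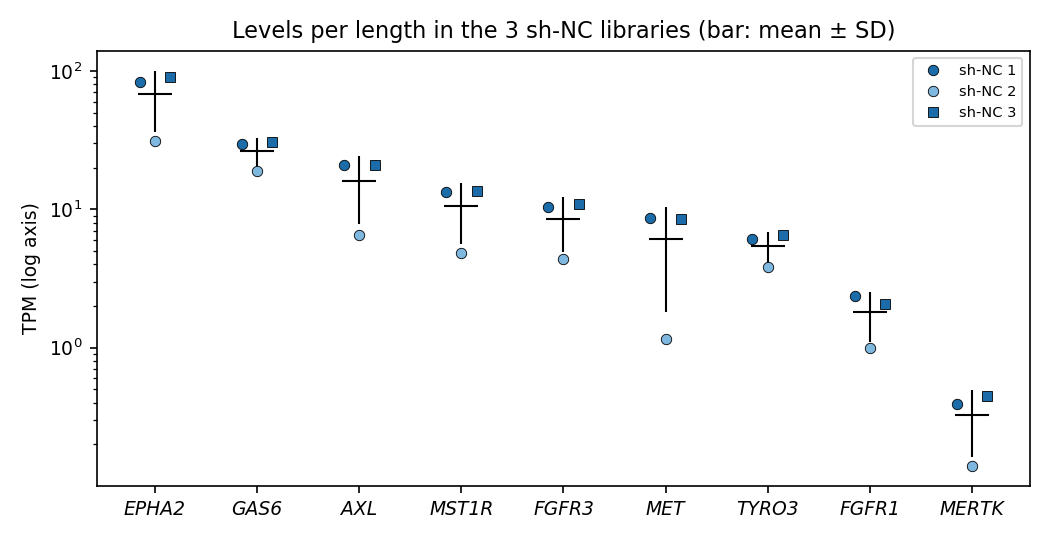
TPM (log axis) of the 9 genes in the 3 sh-NC libraries, in order of their mean. Points are libraries, horizontal bars are means and vertical bars SD (n = 3). Levels ran from 68.3 TPM for EPHA2 to 0.33 TPM for MERTK, and sh-NC library 2 was the lowest for every gene.

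AXL (Entrez gene 558, chr19:41219203-41261766, plus strand, GRCh38) is the TAM family receptor that binds GAS6. It had 1405, 568 and 1361 counts in sh-NC libraries 1 to 3 against 521, 483 and 606 in A to C of shRBM10. As normalised counts these were 1274, 778 and 1228 against 535, 463 and 582. The 3 shRBM10 libraries lay close together and below every sh-NC library, and sh-NC library 2 was nearest to them. The mean was 1093 ± 274 in control and 527 ± 60.1 in knockdown libraries (SD, n = 3 each), with the knockdown at 48.2% of the sh-NC mean. The log2 fold change was -1.06 (SE 0.26), and it was -1.33 (SE 0.18) without sh-NC library 2, -0.88 (SE 0.24) with the GC trend removed and -1.10 (SE 0.11) with both. Without shRBM10 library C it was -1.19 (SE 0.31). The AXL fold change was below 0 under all 17 alternative settings. These settings refit the same libraries, and AXL was selected on this contrast, so the constant sign is not separate support. Its transcripts held 53.9% GC, near the middle of the tested genes (percentile 64.1).

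Markers of other cell types were counted beside AXL, which fibroblasts and endothelial cells also express. The summed normalised count of the 5 fibroblast markers was 58.9 to 124 in sh-NC and 108 to 204 in shRBM10, most of it COL1A1, and COL1A2 had 0 to 2 counts. The sum of the 4 endothelial markers was 100 to 188 in sh-NC and 49.3 to 69.0 in shRBM10. Most of that was CDH5, with PECAM1 at 1 to 3 counts and KDR at 0 to 1 in every library. VWF had 5 to 27 counts, and like CDH5 it was lower in every shRBM10 library than in any sh-NC library. The same held for 16.2% of all genes tested. PDGFRB, of the fibroblast list, had 8 to 26 counts. The part of such cells in the AXL difference was not tested. In bulk RNA, fewer cells with a transcript and less of it per cell cannot be told apart.

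The region upstream of AXL is shown because AXL had the lowest mean in shRBM10 relative to sh-NC of the members, and because AP-1, TEAD and SP1 family factors are known regulators of AXL. The 250 bases before the RefSeq transcription start (chr19:41218973-41219222, plus strand, GRCh38.p14) are printed 5′ to 3′, with capitals marking the GC box GGGCGG that SP1 family factors bind.
AXL upstream region: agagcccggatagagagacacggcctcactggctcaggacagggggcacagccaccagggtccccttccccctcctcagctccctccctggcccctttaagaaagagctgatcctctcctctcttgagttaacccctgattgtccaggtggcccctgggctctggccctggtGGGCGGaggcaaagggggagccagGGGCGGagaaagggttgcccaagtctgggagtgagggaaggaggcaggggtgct
The GC boxes lay 78 and 54 bases before the start. On either strand, GGGCGG was present in 42.6% of the 35116 promoter windows of this length and in 10 of 15 member windows. The member windows belong to 9 genes, FGFR2 among them and FGFR1 not. Each of these genes had at least 1 window with GGGCGG. AXL has a second annotated start with a window at chr19:41226505-41226754. This window held the TEAD motif GGAATG on the reverse strand, 212 bases before that start. On either strand, 11.9% of all windows and 4 of 15 member windows held GGAATG. The AP-1 motif TGANTCA, found in 6.57% of all windows, was in neither AXL window and in 1 of 15 member windows, that of TYRO3.

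AXL is made in forms that differ by a small exon, and RBM10 regulates exon choice, so the exon is shown with the counts estimated for each form. Exon 10 of 20 (chr19:41239694-41239720, plus strand, GRCh38) is coding, has 27 bases and adds 9 codons in frame to NM_021913. It is absent from NM_001699.
AXL exon 10: ggcaagcacagccagtccaccagctgg
The form without the exon, NM_001699, took 68.6%, 80.1% and 66.2% of AXL counts in sh-NC libraries 1 to 3 and 66.0%, 59.4% and 72.4% in shRBM10 A to C. The form with it, NM_021913, took 31.4%, 8.13% and 24.2% against 19.2%, 34.7% and 27.6%. The groups overlapped for both forms, and sh-NC library 2 again lay apart from the other sh-NC libraries. The NM_001699 share averaged 71.6% ± 7.42 (SD, n = 3) in sh-NC against 65.9% ± 6.47 (SD, n = 3) in shRBM10. These shares are estimates that divide reads common to the forms, and their uncertainty within a library is not in the files.

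GAS6 (Entrez gene 2621, chr13:113820549-113864067, minus strand) encodes the vitamin K-dependent ligand of the TAM receptors. Its normalised counts were 917, 1149 and 926 in sh-NC libraries 1 to 3 and 634, 575 and 798 in shRBM10 A to C. The groups did not overlap, and here sh-NC library 2 was the highest of all. The mean was 997 ± 131 in control and 669 ± 116 in knockdown libraries (SD, n = 3 each), at a log2 fold change of -0.58 (SE 0.24). GAS6 transcripts are rich in GC, at 63.7% (percentile 93.2 of the tested genes). Without sh-NC library 2 the log2 fold change was -0.54 (SE 0.20). It was -0.23 (SE 0.15) with the GC trend removed, and without sh-NC library 2 as well it was -0.17 (SE 0.12). GAS6 has annotated antisense transcripts, and whether the counting used strand was not given in the sources used here, so reads of the opposite strand may be among its counts.

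TYRO3 (Entrez gene 7301, chr15), the TAM receptor that also binds GAS6 and protein S, had normalised counts of 561, 694 and 569 in sh-NC against 345, 364 and 460 in shRBM10. All shRBM10 libraries lay below all sh-NC libraries, with C the nearest. Its log2 fold change was -0.64 (SE 0.25), -0.61 (SE 0.21) without sh-NC library 2 and -0.49 (SE 0.15) with the GC trend removed. The main form NM_006293 held 80.6% ± 2.97 of TYRO3 counts in sh-NC against 80.1% ± 0.76 in shRBM10 (SD, n = 3 each). TYRO3 has a pseudogene, and its fractional counts of 618.02 and 336.1 in sh-NC 1 and shRBM10 A were not whole, as happens where reads are divided between similar sequences. MERTK (Entrez gene 10461, chr2), the third TAM receptor, which clears dying cells in macrophages, had only 21, 10 and 24 counts in sh-NC, against 22, 16 and 11 in shRBM10. Its groups overlapped at a log2 fold change of -0.19 (SE 0.39), which was -0.42 (SE 0.40) without sh-NC library 2 and -0.32 (SE 0.33) with the GC trend removed, and it had the fewest counts of the 9 genes.

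MET (Entrez gene 4233, chr7), the receptor for hepatocyte growth factor, had 818, 136 and 774 counts in sh-NC libraries 1 to 3 and 1668, 1420 and 589 in shRBM10 A to C. As normalised counts these were 742, 186 and 699 against 1712, 1361 and 566. Libraries A and B were high, sh-NC library 2 was low, and library C lay below the other two sh-NC libraries. The mean was 542 ± 309 in control and 1213 ± 587 in knockdown libraries (SD, n = 3 each). The log2 fold change of 1.16 (SE 0.52) was 0.66 (SE 0.39) without sh-NC library 2, 0.55 (SE 0.45) with the GC trend removed and 0.17 (SE 0.22) with both. MET transcripts are poor in GC, at 42.4% (percentile 24.9). The MET difference was thus smallest where libraries were compared after both adjustments. It was above 0 in all 17 alternatives, which refit the same libraries and so are not separate support.

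The ratio of MET to AXL counts within a library does not depend on the scaling of libraries. It was 0.582, 0.239 and 0.569 MET counts per AXL count in sh-NC 1 to 3, and 3.20, 2.94 and 0.972 in shRBM10 A to C. The groups did not overlap in this ratio, with library C lying between A and B and the sh-NC libraries. MET and AXL had the highest and lowest fold of the members, which were selected on this contrast. That their ratio separated the groups is therefore not a result. The ratio does depend on the GC trend of each library, since MET and AXL transcripts differ in GC content (42.4% and 53.9%). EPHA2 counts per AXL count were 3.31, 4.03 and 3.64 in sh-NC against 4.0, 3.53 and 5.08 in shRBM10, and these overlapped. The EPHA2 to AXL ratio thus ranged less widely over the 6 libraries than the MET to AXL ratio. The form NM_000245 held 67.0%, 57.3% and 46.3% of MET counts in sh-NC against 51.3%, 31.9% and 55.7% in shRBM10, again with overlap.

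MST1R (Entrez gene 4486, chr3) is the receptor most closely related to MET. Its normalised counts were 806, 574 and 802 in sh-NC against 569, 497 and 857 in shRBM10. Library C was the highest of the 6 and the groups overlapped. Its log2 fold change was -0.18 (SE 0.28), -0.41 (SE 0.26) without sh-NC library 2 and 0.07 (SE 0.22) with the GC trend removed. MST1R has a well-known form that skips exon 11 of 20, a coding exon of 147 bases or 49 codons (chr3:49895961-49896107, minus strand, GRCh38) that is in NM_002447 and missing from NM_001244937.
MST1R exon 11: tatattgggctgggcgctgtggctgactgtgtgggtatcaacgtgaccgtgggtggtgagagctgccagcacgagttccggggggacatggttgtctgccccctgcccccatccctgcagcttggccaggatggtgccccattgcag
The form that skips it held 31.3%, 35.0% and 22.0% of MST1R counts in sh-NC against 31.9%, 36.9% and 23.0% in shRBM10. The values overlapped almost fully, with means of 29.4% ± 6.66 and 30.6% ± 7.01 (SD, n = 3 each). MST1R counts were spread over 10 transcripts.

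EPHA2 (Entrez gene 1969, chr1) had 4645, 2287 and 4959 counts in sh-NC, against 2082, 1705 and 3076 in shRBM10. As normalised counts these were 4213, 3132 and 4475 against 2137, 1634 and 2954. The groups did not overlap, but shRBM10 library C lay just below sh-NC library 2. The mean was 3940 ± 712 in control and 2242 ± 667 in knockdown libraries (SD, n = 3 each), with the knockdown at 56.9% of the sh-NC mean. The log2 fold change was -0.81 (SE 0.28), -1.04 (SE 0.24) without sh-NC library 2 and -0.55 (SE 0.23) with the GC trend removed. Its GC content was 60.3% (percentile 84.2), and the main form NM_004431 held 97.8% ± 0.73 of its counts in sh-NC against 96.7% ± 2.44 in shRBM10 (SD, n = 3 each).

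Among the FGF receptors, FGFR1 (Entrez gene 2260) had normalised counts of 144, 125 and 121 in sh-NC against 106, 78.6 and 134 in shRBM10, with overlap. Its log2 fold change was -0.30 (SE 0.30), -0.41 (SE 0.29) without sh-NC library 2 and -0.08 (SE 0.21) with the GC trend removed. FGFR3 (Entrez gene 2261, chr4) had 560, 478 and 584 in sh-NC against 436, 425 and 725 in shRBM10, so that library C was the highest and A and B the lowest. Its log2 fold change was -0.03 (SE 0.28) and had the opposite sign under 7 of 17 alternatives, and it was -0.19 (SE 0.27) without sh-NC library 2 and 0.25 (SE 0.19) with the GC trend removed.

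FGF receptors switch ligand range by using either of a pair of mutually exclusive exons, IIIb in epithelial cells and IIIc in mesenchymal cells, and the FGFR3 pair is shown for that reason. Both are annotated as coding exon 8 of 18, the IIIb exon with 151 bases (chr4:1802914-1803064) and the IIIc exon with 145 bases (chr4:1803692-1803836), on the plus strand of GRCh38.
FGFR3 exon IIIb: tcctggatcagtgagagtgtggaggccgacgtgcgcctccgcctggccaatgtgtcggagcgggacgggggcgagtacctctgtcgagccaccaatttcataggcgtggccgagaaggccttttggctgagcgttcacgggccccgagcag
FGFR3 exon IIIc: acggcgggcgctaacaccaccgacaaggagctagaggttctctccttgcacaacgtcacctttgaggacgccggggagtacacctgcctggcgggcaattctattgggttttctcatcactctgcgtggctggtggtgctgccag
NM_001163213, the IIIb form, held 57.5%, 29.8% and 62.2% of FGFR3 counts in sh-NC against 45.2%, 65.5% and 56.9% in shRBM10. It was the most abundant of the 7 transcripts in every library. NM_000142, known as the IIIc form, was at 0, 0 and 0 counts in sh-NC and at 12.32, 0 and 24.93 in shRBM10. NM_001354810 was the form whose groups lay apart, at 41.09, 18.83 and 26.97 counts in sh-NC and 0 in every shRBM10 library. The other forms, among them NM_022965 with a mean of 23.6% in sh-NC and 20.3% in shRBM10, were not assigned to either exon here. The splice factor ESRP1, which favours IIIb exons, had a normalised count of 2545 ± 340 in control and 3833 ± 854 in knockdown libraries (SD, n = 3 each), and its log2 fold change was 0.59 (SE 0.25; edgeR, adjusted p = 0.192) and 0.06 (SE 0.14) with the GC trend removed. FGFR1 counts were spread over 32 transcripts, too thinly for a share to be read.

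**Figure D3:**
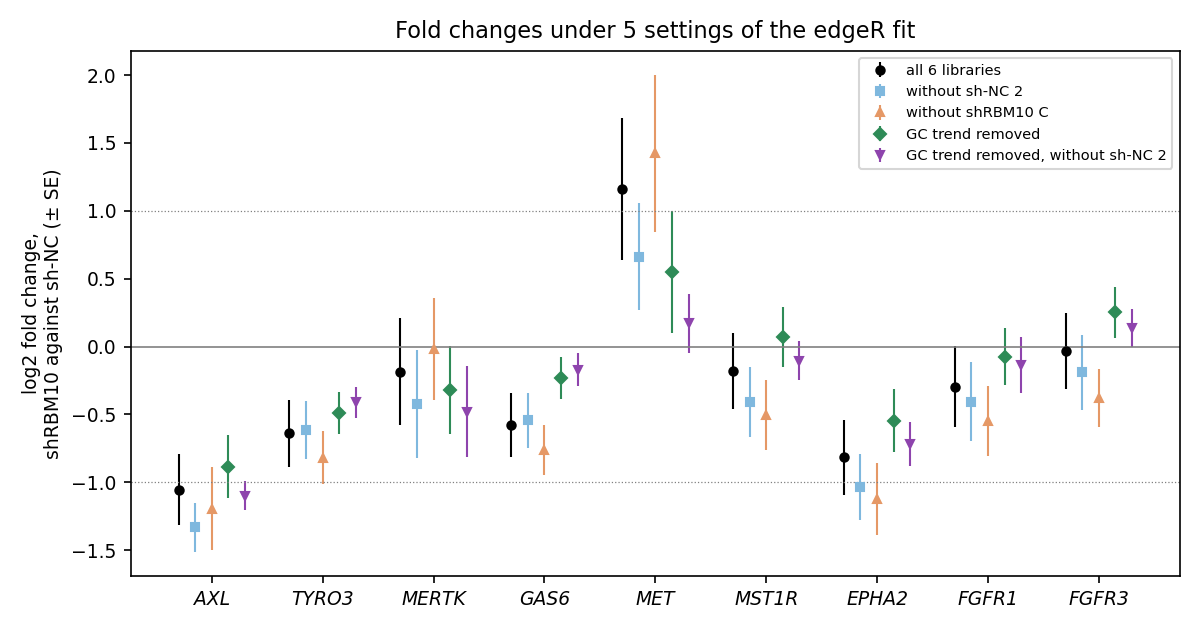
log2 fold changes, shRBM10 against sh-NC, of the 9 genes from the edgeR fit with all 6 libraries and from 4 alternatives. Bars are SE and dotted lines mark a log2 fold change of 1 in either direction. AXL stayed between -0.88 and -1.33, whereas MET ran from 1.42 without shRBM10 library C to 0.17 with the GC trend removed and without sh-NC library 2.

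The members were read against all genes tested. Genes were called where the adjusted p was below 0.05 and the log2 fold change exceeded 1 in size. edgeR called 2 of 12620 genes (0.0158%), DESeq2 called 573 of 12129 (4.72%) and limma-voom called 2. No member passed in edgeR or limma-voom and AXL alone passed in DESeq2, which gave no adjusted p for MERTK. At an unadjusted p under 0.05 and the same fold limit, edgeR counted 193 genes lower (1.53% of those tested), AXL among them, and 1272 higher (10.1%), with 0 members among them. With the GC trend removed these counts were 273 lower and 308 higher, with no member in either. Without sh-NC library 2, AXL was the 1 member among 23 genes called (0.18%), and with the GC trend removed as well it was the 1 member among 278 (2.17%). With DESeq2 and without sh-NC library 2, AXL and EPHA2 were called. For 4 of the 9 members all shRBM10 libraries lay below all sh-NC libraries, as for 16.2% of all genes tested, and for 0 members they all lay above, as for 13.8%. Because the members were chosen from this contrast, nothing is read from these counts. Lower members were 8 of 9 in the main comparison and 6 of 9 with the GC trend removed. Their median log2 fold change was -0.30, or -0.23 with the GC trend removed, beside 0.03 and -0.02 over all genes tested.

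Genes that act with these receptors were counted in 7 lists of 189 genes, of which 146 passed the filter on low counts. No listed gene was called by edgeR at the adjusted p, while 12 passed the unadjusted p and fold limit, 11 of them higher and FOSL1 lower. DESeq2 called 4, which were PROS1, FRS2 and VAV3 higher and FOSL1 lower. As shares of the listed genes tested these were 7.53% higher and 0.685% lower by the unadjusted p and 2.82% by DESeq2, beside 10.1%, 1.53% and 4.72% of all genes. Groups lay apart on the higher side for 17 of the 146 and on the lower side for 17. Over all 12620 genes tested this held for 1747 (13.8%) and 2046 (16.2%). Listed genes named below without a call were picked among those whose groups lay apart, so that trait is not a result.

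The list of ligands and co-receptors had 13 tested genes, 8 with a log2 fold change above 0 and a median of 0.13. PROS1, which encodes protein S, the other ligand of TYRO3 and MERTK, had 7, 2 and 14 counts in sh-NC, against 48, 44 and 23 in shRBM10, with no overlap. Its log2 fold change was 2.30 (SE 0.52; DESeq2, adjusted p = 0.0157; edgeR, adjusted p = 0.130), at counts much lower than those of GAS6. It was 1.61 with the GC trend removed and 1.39 without sh-NC library 2 as well, and without that library DESeq2 gave PROS1 no adjusted p. EFNA5, an ephrin-A ligand of EPHA2, had a mean normalised count of 333 ± 109 in sh-NC against 518 ± 26.3 in shRBM10 (SD, n = 3 each), a log2 fold change of 0.64 (SE 0.30; edgeR, adjusted p = 0.217) that was 0.19 with the GC trend removed. The MET ligand HGF was not in the table.

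Of 15 tested genes for activation and shedding, 7 were above 0 and 8 below, and no gene was called by edgeR or DESeq2, with 3 passing the unadjusted p and fold limit in edgeR. TIMP3, an inhibitor of the sheddases that cut receptor ectodomains, had normalised counts of 3306, 2581 and 3240 in sh-NC against 1496, 1469 and 1702 in shRBM10. The groups were well apart, at a log2 fold change of -0.97 (SE 0.22; edgeR, adjusted p = 0.130), and it was -1.03 (SE 0.17) with the GC trend removed. DESeq2 gave TIMP3 an adjusted p of 0.0152, but its fold lay inside the fold limit. Without sh-NC library 2 TIMP3 was called by edgeR at -1.15 (adjusted p = 0.0487), and with the GC trend removed as well its edgeR adjusted p was 0.00787. ADAM10, a sheddase, had 552, 149 and 526 in sh-NC against 1346, 1338 and 566 in shRBM10, with A and B high and sh-NC library 2 low as for MET. Its log2 fold change of 1.40 (SE 0.49; edgeR, adjusted p = 0.169) was 0.38 (SE 0.16) with the GC trend removed and without sh-NC library 2.

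Among 34 tested adaptors and proximal effectors, 21 were above 0, with a median of 0.33 that was -0.01 without sh-NC library 2. FRS2, the docking protein of FGF receptors, had normalised counts of 152, 73.9 and 139 in sh-NC against 487, 310 and 165 in shRBM10, a log2 fold change of 1.39 (SE 0.43; DESeq2, adjusted p = 0.0374; edgeR, adjusted p = 0.155). VAV3, a guanine nucleotide exchange factor downstream of receptor kinases, had 48.1, 54.8 and 52.3 against 288, 203 and 90.3, a log2 fold change of 1.90 (SE 0.42; DESeq2, adjusted p = 0.00202; edgeR, adjusted p = 0.129). These were 0.63 for FRS2 and 1.35 for VAV3 with the GC trend removed, and DESeq2 without sh-NC library 2 called VAV3 and not FRS2. SRC, the kinase activated by many of these receptors, had a mean of 1537 ± 250 in sh-NC against 958 ± 214 in shRBM10 (SD, n = 3 each), a log2 fold change of -0.68 (SE 0.25; edgeR, adjusted p = 0.170) that was -0.42 with the GC trend removed. LYN, another kinase of the SRC family, had 548 ± 157 against 1082 ± 234 (SD, n = 3 each), a log2 fold change of 0.98 (SE 0.29; edgeR, adjusted p = 0.153) that was 0.67 with the GC trend removed. SOS2 and SHC3 did not overlap on the higher side and DOK1 on the lower side. Their log2 fold changes were 1.51 (SE 0.56), 0.40 (SE 0.32) and -0.44 (SE 0.31). With the GC trend removed these were 0.85, 0.42 and -0.08. Without sh-NC library 2 as well they were 0.47, 0.17 and 0.12, so DOK1 changed sign.

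Of 28 negative regulators, 17 were above 0 and 11 below, with a median of 0.11 that was -0.02 with the GC trend removed and -0.17 without sh-NC library 2. No gene was called by edgeR or DESeq2, with 2 passing the unadjusted p and fold limit in edgeR. LRIG2 and LRIG3, listed here as members of the LRIG family of membrane proteins, had log2 fold changes of 1.12 (SE 0.37) and 0.81 (SE 0.33). Whether they restrain receptor kinases in these cells was not tested. DUSP5, a phosphatase of ERK induced by ERK signalling, had -0.56 (SE 0.23), CBLC, a ubiquitin ligase for receptors, -0.56 (SE 0.31) and LZTR1, which targets RAS proteins for degradation, -0.52 (SE 0.25). That the groups did not overlap was a condition for naming these 5. The values with the GC trend removed were 0.49 for LRIG2, 0.59 for LRIG3, -0.33 for DUSP5, -0.19 for CBLC and -0.23 for LZTR1. CBLC turned to 0.15 without sh-NC library 2 as well. The other receptor tyrosine kinases divided evenly, with 12 above and 12 below 0 and none called by edgeR or DESeq2 or past the unadjusted p and fold limit. ERBB3 and CSF1R did not overlap on the higher side, with log2 fold changes of 0.57 (SE 0.24 each), and EPHB6, a kinase-dead ephrin receptor, on the lower side at -0.79 (SE 0.25). Removing the GC trend gave 0.67, 0.81 and -0.50.

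Mesenchymal and epithelial state genes were counted because AXL is known to follow the mesenchymal state. Of 14 tested mesenchymal genes 6 were above and 8 below 0, and of 18 epithelial genes 5 were above and 13 below, with medians of -0.14 and -0.08. With the GC trend removed the medians were -0.14 and 0.06, so the epithelial median changed sign. FOSL1, an AP-1 subunit active in mesenchymal cells, had normalised counts of 1482, 1584 and 1419 in sh-NC against 548, 523 and 681 in shRBM10. The groups were far apart relative to their spread, at a log2 fold change of -1.36 (SE 0.22; DESeq2, adjusted p = 0.000143; edgeR, adjusted p = 0.0894) and -1.07 (SE 0.14) with the GC trend removed. CCN1, TGFBI and TWIST2 also did not overlap on the lower side, with log2 fold changes of -0.87 (SE 0.28), -0.66 (SE 0.25) and -0.64 (SE 0.29), whereas CDH2, which encodes N-cadherin, did not overlap on the higher side at 0.33 (SE 0.23). With the GC trend removed CCN1, TGFBI and TWIST2 had -0.84, -0.51 and -0.40, and CDH2 had a difference that rounded to 0, or -0.09 without sh-NC library 2 as well. SNAI2, another listed mesenchymal gene, had -0.50 in the main fit. With the GC trend removed and without sh-NC library 2, edgeR called SNAI2 at -1.02 (adjusted p = 0.0369). DESeq2 called CCN1 without sh-NC library 2, at -1.03 (adjusted p = 0.0164). No mesenchymal gene was called on the higher side in any fit. In the epithelial list OVOL2, a repressor of mesenchymal genes, had -0.63 (SE 0.27) and CLDN7, a tight junction protein, -0.57 (SE 0.26), which were -0.37 and -0.28 with the GC trend removed.

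**Figure D4:**
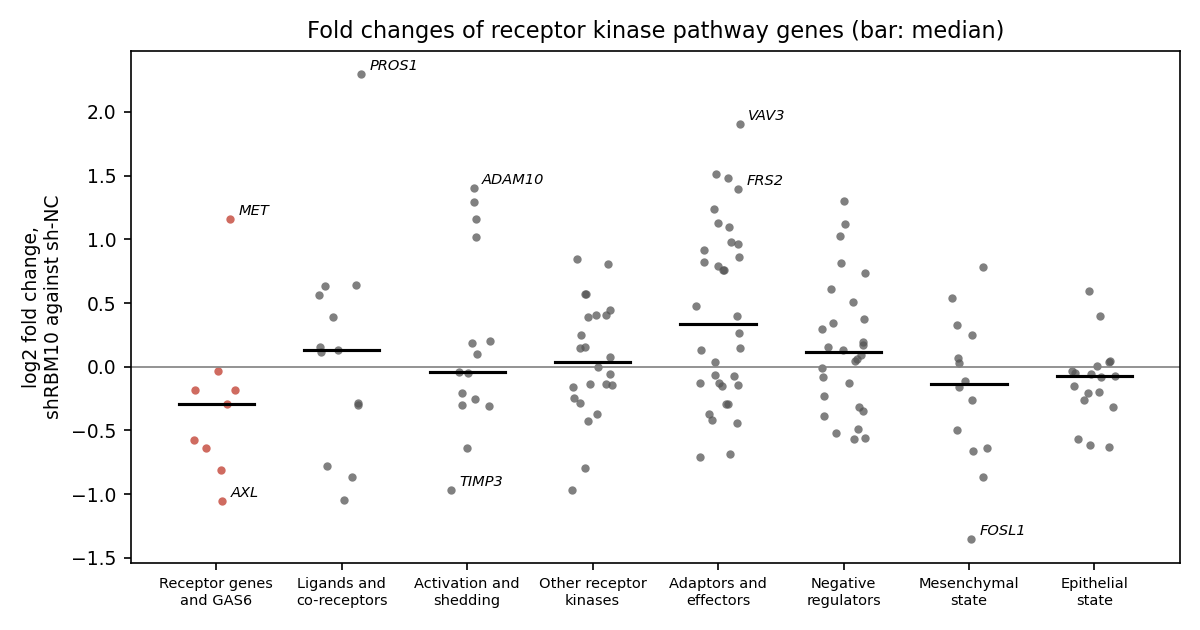
log2 fold changes, shRBM10 against sh-NC, of the 9 member genes (red) and of the tested genes of 7 lists (grey), from the edgeR fit with all 6 libraries. Each point is a gene and each bar a median. List medians lay between -0.14 and 0.33. The 4 listed genes called by DESeq2 were PROS1 (2.30), VAV3 (1.90), FRS2 (1.39) and FOSL1 (-1.36), with edgeR folds in brackets. Of the members, DESeq2 called AXL.

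The genes whose levels over the 6 libraries were most like those of AXL were found by the root mean square difference of log2 levels, each relative to its own sh-NC mean. MARCHF4, TP73, TOB2, CACNB1 and C1orf226 were the nearest 5, at 0.077, 0.100, 0.103, 0.122 and 0.125. TOB2 had normalised counts of 1413, 1024 and 1474 in sh-NC against 572, 577 and 690 in shRBM10. MARCHF4 had 386, 270 and 388 against 165, 138 and 191. In both, as for AXL, sh-NC library 2 was the lowest of the sh-NC libraries and all shRBM10 libraries lay lower still. That likeness follows from the rule that picked them. None of the 5 was in the receptor, ligand or pathway lists.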

How the data were processed

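RNA was sequenced from 3 sh-NC and 3 shRBM10 libraries of PC9 cells. The authors deposited a gene and a transcript table with estimated read counts and TPM on hg38 (submitters' processing notes). The aligner and counter were not given in the sources used here. Of the gene counts, 87.53% were whole. The labels' extraction text mentions retinas and 2 library kits. Summed normalised counts of retina markers were 2.71 to 9.07. No replicate pair agreed within sampling noise (smallest chi-square per degree of freedom 2.931, for sh-NC 1 and 3).

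Estimated counts as deposited were rounded and tested with edgeR 4.0.16 (TMM scaling, filterByExpr, quasi-likelihood test, Benjamini-Hochberg over all 12620 genes) in R 4.3.3, with calls where the adjusted p was below 0.05 and the log2 fold change exceeded 1 in size. DESeq2 1.42.0 and limma 3.58.1 were alternatives. Normalised counts are counts scaled to the mean effective library size. The GC trend was removed as a lowess offset (span 0.3) per library, for the 99.6% of genes with a GC content. The TPM deposited by the authors were used for sh-NC libraries as levels only, with no test. Columns left out were 32 of other per-sample values and 16 of group means. Sequences came from GRCh38 (GENCODE 29 exons) and RefSeq promoter windows. The fit was tested on simulated counts.

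The members and lists were chosen with earlier results of these data known. Named were all members, listed genes called by edgeR or DESeq2, up to 3 more per direction and list with the largest fold among genes with a mean normalised count of at least 50 and groups that did not overlap, and the 5 genes most like AXL. SNAI2 was added for its call in an alternative fit.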

Additional observations from a re-analysis of the deposited data

How the results depend on the processing

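The number of genes called (2 in edgeR) was 31 with no filter on low counts, 4 with the GC trend removed, 278 with the GC trend removed and without sh-NC library 2, 573 in DESeq2, 406 in DESeq2 without sh-NC library 2 and 0 with library size alone as scaling (edgeR, 1117 genes at an unadjusted p under 0.05 and the fold limit, against 1465 with TMM scaling). Leaving out 1 library at a time gave 0 to 23 genes. The highest count came without sh-NC library 2, 5 without sh-NC library 1, and 0 without sh-NC library 3 or any shRBM10 library (574 to 2143 by unadjusted p and fold). The share of higher genes among those at the unadjusted p and fold limit was 86.8%, and 53.0% (308 higher, 273 lower) with the GC trend removed.

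Of the members, 0 were called in edgeR, 1 in DESeq2, at the unadjusted p, and with the GC trend removed and without sh-NC library 2, and 2 in DESeq2 without sh-NC library 2. Leaving out 1 library at a time gave 0 to 1, with AXL called without sh-NC library 2. Over 17 alternatives 8 of 153 member fold changes had the other sign, 7 of FGFR3 and 1 of MST1R. AXL was called in 5, EPHA2 in 1 and MET in 1. The AXL calls were among 23 of 12795 genes without sh-NC library 2, 278 of 12795 with the GC trend removed as well, and 573 of 12129 in DESeq2. The others were among 406 of 11306 in DESeq2 without sh-NC library 2 (with EPHA2) and 861 of 12620 with the letter block described below (with MET). The GC fit without sh-NC library 2 and these last fits were added after seeing the data. The MET log2 fold change ranged from 0.66 to 1.45 when 1 library was left out, and AXL from -1.33 to -0.93.

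Listed genes called were 0 in edgeR, 1 with no filter, 4 in DESeq2, 5 in DESeq2 without sh-NC library 2, 4 with the GC trend removed and without that library, and 12 at the unadjusted p. Leaving out 1 library at a time gave 0 to 2. The columns of both groups end in the letters A, B and C (sh-NC 1 to 3 are A to C), which the shRBM10 titles do not bear out as replicate numbers. With the letter as a replicate block edgeR called 861 genes, 2 of them members (AXL and MET) and 7 of them listed genes. Deviations from the group means of libraries with the same letter correlated at 0.377, -0.047 and -0.322 for A, B and C, so the letters were not taken as a pairing. The block and the fits that left out sh-NC library 2 and changed another choice were added after seeing the data. The cause of these changes was not tested. The fewest counts lay behind MERTK, with 10 to 24 per library.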

Other observations

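CSF1R, the receptor for macrophage colony stimulating factor, had 1061, 563 and 995 counts in sh-NC libraries 1 to 3 and 1108, 1188 and 1710 in shRBM10 A to C, so the groups did not overlap (normalised count 877 ± 97.4 and 1306 ± 291, SD, n = 3 each). Of the leukocyte markers in the same libraries, PTPRC, ITGAM and CD79A had 0 to 7, 0 to 5 and 1 to 6 counts. CD68, also of that list, had 1795 to 2442 counts. The log2 fold change of CSF1R was 0.57 (SE 0.24; edgeR, adjusted p = 0.192) and 0.69 (SE 0.11; edgeR, adjusted p = 0.0174) with the GC trend removed and without sh-NC library 2, which was inside the fold limit.

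CDH5, which encodes VE-cadherin, had normalised counts of 161, 83.5 and 159 in sh-NC and 41.1, 59.4 and 54.8 in shRBM10. Its groups did not overlap, as for 16.2% of all genes tested on the lower side, AXL among them. PECAM1, another endothelial marker, overlapped between the groups at 1 to 3 counts. A link between CDH5 and AXL was not tested.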
